A study of Mus musculus with 9 samples.

Results

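The B lineage transcription factors Pax5, Ebf1, Spib, Pou2af1, Pou2f2, Bach2, Irf4, Irf8, Prdm1 and Ets1 were followed in splenic follicular B cells that differed in their heavy chain genotype. These 10 genes, which set B cell identity or the switch to plasma cells, were taken by their symbols, with no measured value in the rule. They were, however, chosen with earlier results of these data known. A probe set, the group of probes read out as 1 value, was used when the array annotation gave it a single symbol, and where a gene had several, the one with the highest mean signal was taken. All 10 factors were found among 22180 genes named in this way. Of these, 9 exceeded the array-wide median signal on each of the 9 arrays and were among the 12170 genes tested. Prdm1 lay above that median on only 2 arrays and was not tested.

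The study compared follicular B cells sorted from the spleen of polyclonal mice aged 6 to 12 weeks, with 3 arrays for each of 3 genotypes, and its title asks how receptor dosage of a given heavy chain isotype bears on B cell fate. The genotypes were labelled Ighε/ε VJk5, Ighγ1/γ1 VJk5 and Ighwt VJk5, and are called ε/ε, γ1/γ1 and wild-type here. All 3 genotypes, the wild-type included, carried VJk5, which the labels do not explain. How the ε and γ1 alleles were made, what drives them and whether other isotypes are still expressed is not described in the labels. The replicates were called independent, but the labels do not tie each one to a separate mouse, so p-values measure only the spread between these samples, which may be technical. Values are log2 signals as deposited, so a difference of 1 is a doubling, and signals of different probe sets are not set against each other.

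Pax5 and Ebf1 are the factors that commit lymphoid progenitors to the B lineage and hold that identity in mature B cells. Pou2f2 (Oct-2) binds the octamer motif of immunoglobulin and other B cell promoters and recruits the coactivator Pou2af1 (OCA-B), while Spib and Ets1 are Ets family proteins, Spib being a close relative of PU.1. Irf4 and Irf8 bind beside Ets proteins at composite sites, and Irf4, when high, joins Prdm1 (Blimp-1) in driving plasma cell differentiation, a step that Bach2, Pax5 and Irf8 hold back.

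Promoters are shown for Pou2af1 and Spib because these were the factors that passed the test against wild-type and their signals moved together over the arrays. The sequences are the 250 bases before the transcription start in RefSeq on GRCm38.p6, written 5′ to 3′ on the strand of the gene. Pou2af1 lies on the plus strand, with the printed window at chr9:51213440-51213689, and Spib on the minus strand, with the window at chr7:44532072-44532321. Capitals in the Spib sequence mark a pair of overlapping matches to the Ebf motif CCCNNGGG, which together cover the bases 65 to 57 before the start.
Pou2af1: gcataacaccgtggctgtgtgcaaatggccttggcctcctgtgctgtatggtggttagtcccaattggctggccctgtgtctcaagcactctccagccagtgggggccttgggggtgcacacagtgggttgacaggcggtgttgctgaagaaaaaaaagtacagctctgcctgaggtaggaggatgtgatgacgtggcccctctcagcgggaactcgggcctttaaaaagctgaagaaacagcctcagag
Spib: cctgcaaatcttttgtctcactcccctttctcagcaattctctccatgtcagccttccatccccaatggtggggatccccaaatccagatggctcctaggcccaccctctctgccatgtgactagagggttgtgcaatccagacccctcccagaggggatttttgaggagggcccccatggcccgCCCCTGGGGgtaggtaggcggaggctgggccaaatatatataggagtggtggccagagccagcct

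RefSeq promoters were matched for 9 of the 10 factors, Ets1 being the exception, and gave 11 windows because some genes have more than 1 start. Both strands were searched for 5 motifs, and the same search over 32851 mouse promoters gave the share that holds each one by sequence alone. The Ebf motif was in 1 of the 11 windows, that of Spib, and in 11.8% of all promoters. The octamer ATTTGCAT, bound by Pou2f2, was in 0 of the 11 and in 1.60% of all promoters. The Ets motif CCGGAAG lay in the windows of Pou2f2 and Bach2, and in 6.91% of all promoters. Those windows also held the Ets-IRF composite GGAANNGAA, found in 6.99% of all promoters. Their starts lie 48337 bases (Pou2f2) and 179022 bases (Bach2) from the 5′ edge of the annotated gene, against 0 for Pou2af1 and 16 for Spib. The IRF motif AANNGAAA, found in 21.3% of all promoters, was in 4 of the 11 windows, those of Ebf1 (both windows), Pou2f2 and Bach2, and in Pou2f2 and Bach2 it overlapped the composite. The Pou2af1 window held none of the 5 motifs. A match is a stretch of letters and does not show that a factor binds there.

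In ε/ε cells 2 of the 9 factors tested rose against wild-type, Pou2af1 by 3.08-fold and Spib by 2.91-fold, and 0 fell. Over all genes tested, 6.34% passed this comparison in either direction and 2.33% passed as higher in ε/ε. The number of genes passing was 772, and it was 512, 186 and 210 without wild-type replicate 1, 2 and 3. At an unadjusted limma p under 0.05 there were 2 factors, the same ones, and 3016 genes in all (24.8% of those tested). The median log2 difference of the 9 factors was 0.36, against -0.013 for all genes tested. The differences of 7 factors were above 0, which held for 48.3% of all genes tested. The test was a limma model over the 9 arrays with p-values adjusted over all genes tested, and an adjusted p under 0.05 counted as passing. After quantile normalization of the arrays the same 2 factors passed, while 57.8% of the genes called were higher in ε/ε, in place of 36.7%.

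**Figure D1:**
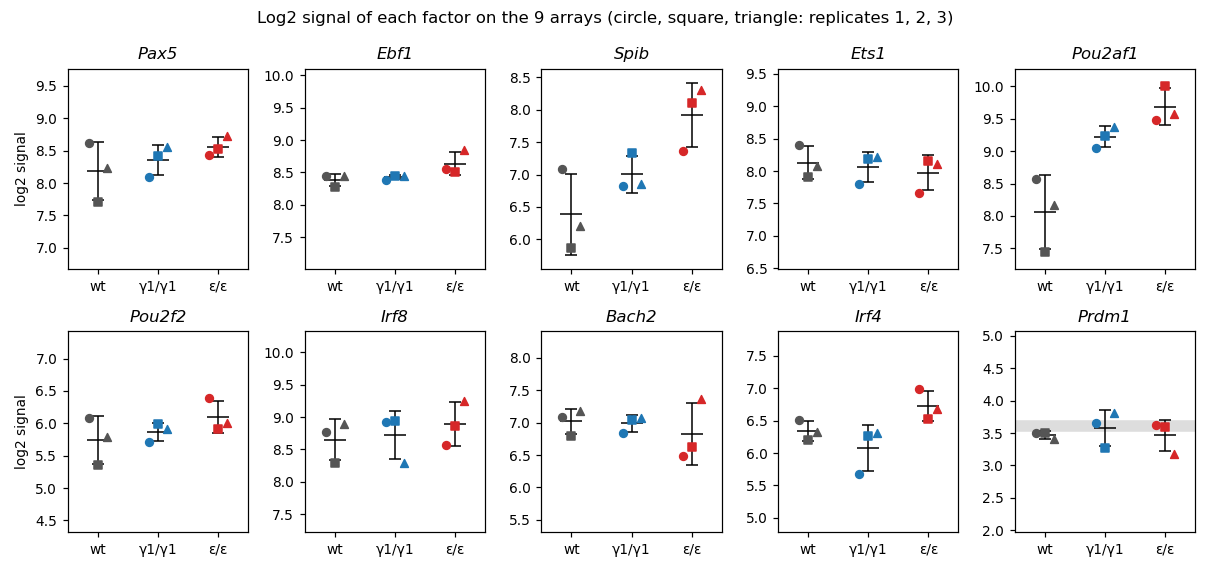
Log2 signal (vertical axis) of each of the 10 factors in ε/ε, γ1/γ1 and wild-type follicular B cells, 1 panel per gene; circles, squares and triangles are replicates 1, 2 and 3. The 3 ε/ε arrays lie above the 3 wild-type arrays for Ebf1, Spib, Pou2af1 and Irf4, and the values overlap for the other factors.

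Pou2af1, the coactivator that docks on octamer-bound Oct proteins and is needed for germinal centres, read 9.48, 10.01 and 9.57 on the ε/ε arrays (probe set 17517209). Its γ1/γ1 values were 9.05, 9.24 and 9.38, and its wild-type values were 8.58, 7.44 and 8.17. No genotype overlapped another: every ε/ε array was above every γ1/γ1 array, and every γ1/γ1 array above every wild-type array. The means were 9.69 ± 0.28 for ε/ε, 9.22 ± 0.17 for γ1/γ1 and 8.06 ± 0.57 for wild-type (SD, n = 3 each). Against wild-type the ε/ε level was higher by 1.62 on the log2 scale (SE 0.27, 95% interval 1.03 to 2.22, limma adjusted p = 0.00976). Pou2af1 passed in every alternative setting run for ε/ε against wild-type, with differences from 1.31 to 1.88 and adjusted p from 0.00576 to 0.0431. It was also the only factor to pass the moderated F test for any difference among the 3 genotypes (adjusted p = 0.0207), a test passed by 4.11% of genes. The F test call was lost without wild-type replicate 3 (adjusted p = 0.0726) and without the 2 arrays that had low signal for Xist (0.064).

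Spib, an Ets factor needed for normal receptor signalling in mature B cells, read 7.36, 8.11 and 8.30 on the ε/ε arrays, 6.82, 7.33 and 6.86 on those of γ1/γ1, and 7.08, 5.86 and 6.21 on those of wild-type (probe set 17490274). The ε/ε arrays lay above all others, the lowest of them by a small gap over the highest γ1/γ1 array, while γ1/γ1 and wild-type overlapped through wild-type replicate 1. The mean was 7.92 ± 0.50 for ε/ε and 6.38 ± 0.63 for wild-type (SD, n = 3 each), with γ1/γ1 between them. The ε/ε level exceeded wild-type by 1.54 on the log2 scale (SE 0.33, 95% interval 0.80 to 2.27, limma adjusted p = 0.0253). This call depended on the arrays included: it was lost without ε/ε replicate 2 (1.45, adjusted p = 0.0613), ε/ε replicate 3 (1.35, 0.0678), wild-type replicate 2 (1.28, 0.104) or wild-type replicate 3 (1.45, 0.0965). With only the 6 ε/ε and wild-type arrays in the model the adjusted p was 0.0734. In the F test over the 3 genotypes Spib had an adjusted p of 0.0593, and of 0.0313 without wild-type replicate 1.

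**Figure D2:**
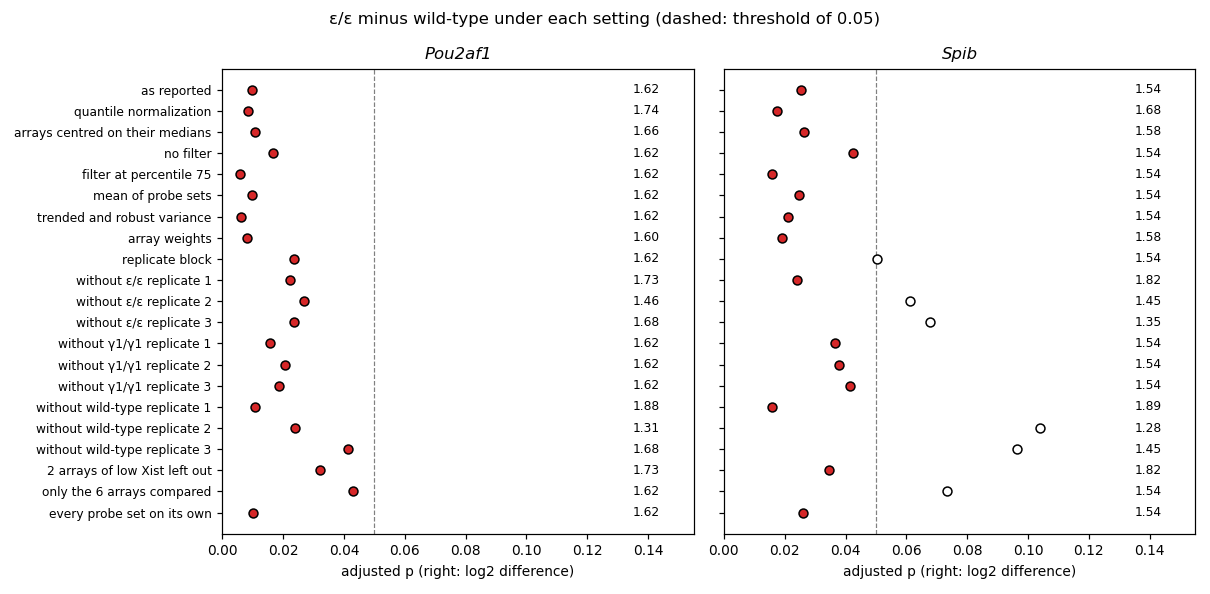
Adjusted p (horizontal axis) of ε/ε minus wild-type for Pou2af1 and Spib under each setting, with the log2 difference printed at the right and a dashed line at 0.05. Pou2af1 stays below 0.05 throughout, while Spib reaches 0.104 without wild-type replicate 2.

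The commitment factors did not pass against wild-type. Pax5 read 8.43, 8.53 and 8.73 on the ε/ε arrays, 8.10, 8.42 and 8.55 on those of γ1/γ1, and 8.61, 7.71 and 8.24 on those of wild-type. The wild-type arrays alone spanned more than the other genotypes, with replicate 1 above 2 of the ε/ε arrays and replicate 2 the lowest of the 9. Pax5 in ε/ε exceeded its wild-type mean by 0.37 (SE 0.23, 95% interval -0.13 to 0.88, adjusted p = 0.337). Ebf1, the partner of Pax5, read 8.56, 8.51 and 8.84 on the ε/ε arrays, 8.39, 8.44 and 8.44 on those of γ1/γ1, and 8.44, 8.27 and 8.44 on those of wild-type. All 3 ε/ε arrays stood above the other 6, by 0.25 against wild-type on average (SE 0.14, 95% interval -0.05 to 0.56, adjusted p = 0.287).

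Pou2f2 read 6.39, 5.91 and 6.01 on the ε/ε arrays, 5.72, 5.99 and 5.91 on those of γ1/γ1, and 6.09, 5.35 and 5.80 on those of wild-type, so the 3 genotypes overlapped. The ε/ε mean exceeded that of wild-type by 0.36 (SE 0.20, 95% interval -0.10 to 0.81, adjusted p = 0.312). Ets1, which restrains plasma cell formation, read 7.66, 8.15 and 8.10 on the ε/ε arrays, 7.80, 8.19 and 8.22 on those of γ1/γ1, and 8.40, 7.90 and 8.08 on those of wild-type. The groups overlapped throughout, and ε/ε minus wild-type was -0.16 (SE 0.20, 95% interval -0.59 to 0.28, adjusted p = 0.661).

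Among the factors of the plasma cell switch, Irf4 read 6.98, 6.53 and 6.68 on the ε/ε arrays, 5.67, 6.26 and 6.31 on those of γ1/γ1, and 6.51, 6.19 and 6.32 on those of wild-type. The ε/ε arrays were above the other 6, with only a small gap between ε/ε replicate 2 and wild-type replicate 1, and γ1/γ1 replicate 1 was the lowest. Irf4 was higher in ε/ε than in wild-type by 0.39 without passing (SE 0.20, 95% interval -0.06 to 0.83, adjusted p = 0.262). Irf8 read 8.57, 8.87 and 9.25 on the ε/ε arrays, 8.93, 8.95 and 8.30 on those of γ1/γ1, and 8.78, 8.29 and 8.89 on those of wild-type, with the groups overlapping and a difference of 0.24 between ε/ε and wild-type (95% interval -0.30 to 0.79, adjusted p = 0.579). Irf8 was the only factor with a further, dimmer probe set, and there the ε/ε arrays lay above the other 6: it read 6.94, 7.08 and 7.25 on the ε/ε arrays, 6.23, 6.80 and 6.80 on those of γ1/γ1, and 6.78, 5.97 and 6.67 on those of wild-type. It gave 0.62 for ε/ε minus wild-type (SE 0.24, 95% interval 0.09 to 1.14, limma adjusted p = 0.146), and neither probe set of Irf8 passed.

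Bach2, the repressor that keeps Prdm1 down, read 6.48, 6.62 and 7.37 on the ε/ε arrays, 6.85, 7.04 and 7.08 on those of γ1/γ1, and 7.08, 6.80 and 7.18 on those of wild-type. The ε/ε arrays held both the lowest values and the highest, and ε/ε minus wild-type was -0.19 (SE 0.23, 95% interval -0.69 to 0.31, adjusted p = 0.634). Prdm1, the repressor that drives plasma cell differentiation, read 3.62, 3.59 and 3.18 on the ε/ε arrays. It read 3.65, 3.27 and 3.81 on those of γ1/γ1, and 3.51, 3.49 and 3.40 on those of wild-type. These values lay around the median of all probe sets, which ranged from 3.53 to 3.69 over the arrays, and the genotypes overlapped. In a model without the filter on dim genes, Prdm1 differed between ε/ε and wild-type by -0.0035 (95% interval -0.39 to 0.38, adjusted p = 0.995).

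Counted by arrays alone, 4 of the 9 factors tested had all ε/ε arrays above all wild-type arrays (Ebf1, Spib, Pou2af1 and Irf4), and 0 had them all below. Over all genes tested, 11.8% had ε/ε arrays wholly above wild-type.

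Against wild-type, γ1/γ1 cells showed no called change in the 9 factors, and 0.0411% of all genes tested passed in that comparison. At an unadjusted p under 0.05 in limma, 1 factor and 830 genes in all (6.82%) were found. That factor was Pou2af1, higher in γ1/γ1 by 1.16 on the log2 scale (2.24-fold, 95% interval 0.57 to 1.76, adjusted p = 0.364). It was also the only factor with γ1/γ1 arrays wholly above wild-type, a pattern held by 4.68% of all genes. Spib differed by 0.62 (95% interval -0.12 to 1.35, adjusted p = 0.758) and Irf4 by -0.26 (95% interval -0.70 to 0.19, adjusted p = 0.834). The other factors differed by -0.06 to 0.17, and the median of the 9 was 0.07, against -0.0175 for all genes tested.

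Between ε/ε and γ1/γ1, 0 of the 9 factors passed, while 2.66% of all genes tested did. At an unadjusted p under 0.05 in limma there were 2 factors, Spib and Irf4, and 2417 genes in all (19.9%). Spib was higher in ε/ε by 0.92 (95% interval 0.19 to 1.66, adjusted p = 0.161) and Irf4 by 0.65 (95% interval 0.20 to 1.09, adjusted p = 0.114). Pou2af1 differed by 0.46 (95% interval -0.13 to 1.06, adjusted p = 0.365), so the order of its means, ε/ε over γ1/γ1 over wild-type, was passed only between its ends. The ε/ε arrays were wholly above γ1/γ1 for the same 4 factors as against wild-type, and 9.86% of all genes had that pattern. The 2 comparisons of ε/ε use the same ε/ε arrays, and those against wild-type the same wild-type arrays, so their differences are not independent.

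**Figure D3:**
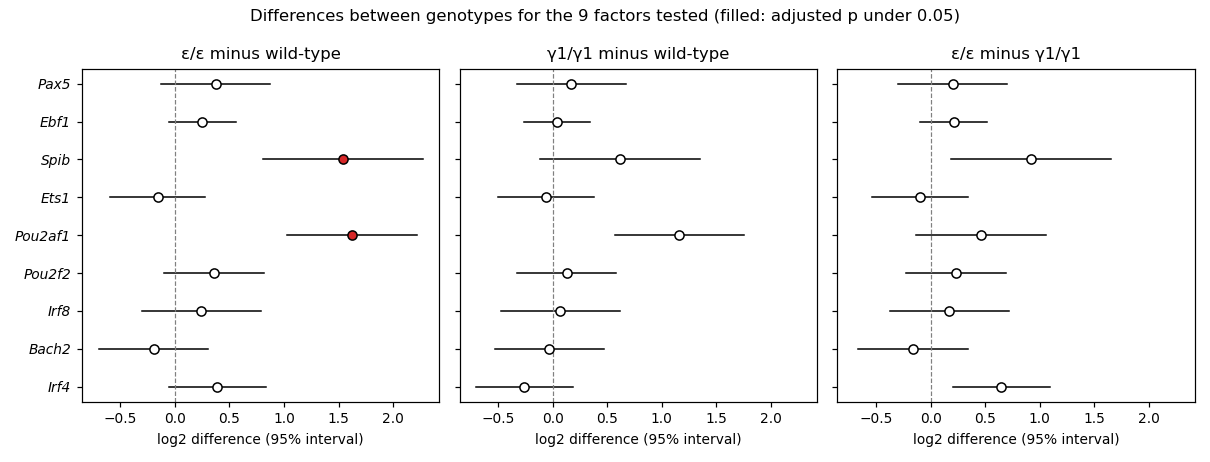
Log2 difference with its 95% interval (horizontal axis) for the 9 factors tested in the 3 comparisons; filled points have a limma adjusted p under 0.05. Only Spib and Pou2af1 are filled, both in ε/ε minus wild-type.

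The arrays did not contribute evenly. Wild-type replicate 2 was the lowest of the 9 arrays for 6 of the 10 factors (Pax5, Ebf1, Spib, Pou2af1, Pou2f2 and Irf8), and for 15.3% of all genes tested. Without it, Pou2af1 differed between ε/ε and wild-type by 1.31 (adjusted p = 0.0238), and the median of the 9 factors tested was 0.16, with 1 passing. Macrophage markers were strongest in ε/ε replicate 1: all 14 were on the array and 13 were highest there. Their median signal was 6.72 in that array, 4.23 and 3.74 in the other ε/ε arrays and 3.69 to 3.80 in γ1/γ1 and wild-type. The rise was not confined to that array: for C1qa, C1qb, Hmox1, Axl and Csf1r all ε/ε arrays lay above all wild-type arrays. For the other markers these groups overlapped. C1qb read 8.29, 6.13 and 5.09 on the ε/ε arrays and at most 4.19 in wild-type. Hmox1 read 9.07, 6.09 and 4.93 on the ε/ε arrays and at most 3.895 in wild-type. Leaving out ε/ε replicate 1 therefore does not leave out all of this signal. Of the 11 macrophage markers tested 0 passed in limma between ε/ε and wild-type, and 4 had an unadjusted p under 0.05, as had 24.8% of all genes tested. Just above the threshold were C1qb (limma adjusted p = 0.0505), C1qa (0.0509) and Hmox1 (0.0575). Csf1r, Slc40a1 and C1qc were left out by the filter on dim genes. The part of these markers in the results was not tested. Without ε/ε replicate 1 the difference was 1.82 for Spib (adjusted p = 0.0239) and 1.73 for Pou2af1 (adjusted p = 0.0221). The same array and γ1/γ1 replicate 1 had low Xist, at 5.25 and 4.53 against 10.37 to 10.79 elsewhere, and without both arrays Spib differed by 1.82 (adjusted p = 0.0346) and Pou2af1 by 1.73 (adjusted p = 0.0322). The 6 B cell markers named on the array were above the median of every array, with a median of 9.06 to 9.88. By the same measure 0 of 7 T cell, 0 of 4 neutrophil and 0 of 2 erythroid markers were. So were 5 of 14 macrophage, 4 of 5 plasmacytoid dendritic, 1 of 5 natural killer and 1 of 6 conventional dendritic cell markers. List medians were 3.29 to 4.29 for natural killer cells, highest in ε/ε replicate 1, 3.95 to 4.50 for plasmacytoid and 3.29 to 3.96 for conventional dendritic cells, and 2.40 to 2.97 for the 2 erythroid markers on the array. In RNA from a sorted bulk population, fewer cells of a type and less RNA per cell cannot be told apart.

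**Figure D4:**
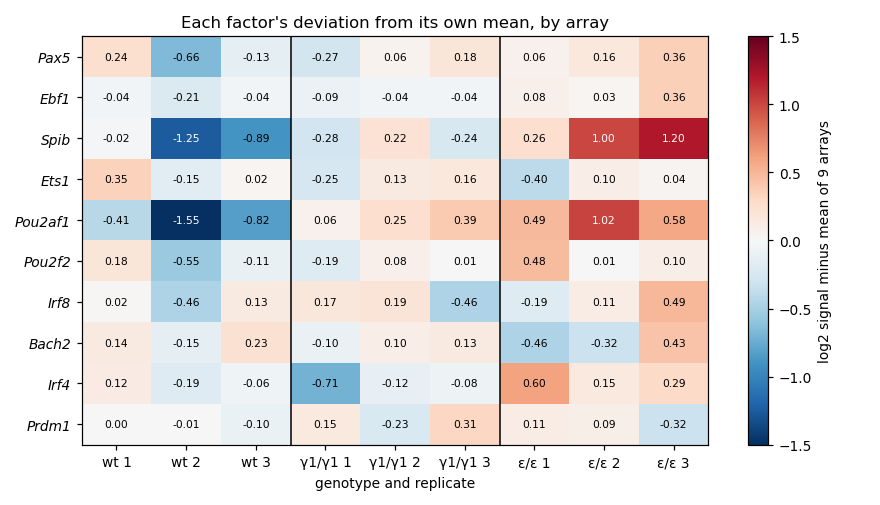
Log2 signal of each of the 10 factors minus its own mean over the 9 arrays (colour), by genotype and replicate. Wild-type replicate 2 is the lowest array for 6 factors, and Spib and Pou2af1 share their high values in ε/ε.

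Over the 9 arrays, the factor closest to Spib was Pou2af1 (Pearson r = 0.88), followed by Ebf1 (0.82) and Pax5 (0.80), and Pax5 and Pou2f2 had r = 0.78. These are descriptions over arrays that share their genotypes and the low wild-type replicate 2. Among all genes tested, those most like Spib were Tlr9, the endosomal DNA sensor (r = 0.976), Psme2, a proteasome activator subunit (0.974), and Zyx, a focal adhesion protein (0.973). Tlr9 rose in ε/ε by 1.24 (adjusted p = 0.0303), Psme2 by 0.96 (0.0284) and Zyx by 0.74 (0.0321). Each of these calls was lost without ε/ε replicate 2 or 3 or wild-type replicate 2 or 3, as for Spib. The limma adjusted p was up to 0.128 for Tlr9, 0.114 for Psme2 and 0.128 for Zyx. These genes, and those most like Pou2af1, were picked by correlation over these same arrays. Changes like those of the factor partly follow from that choice. Most like Pou2af1 were Btbd35f12 (r = 0.956), Nfkb2, the p100 subunit of NF-κB (0.955), and Tshz1, a zinc finger factor (0.955). Nfkb2 averaged 6.76 for ε/ε, 6.19 for γ1/γ1 and 5.38 for wild-type and rose in ε/ε by 1.38 (adjusted p = 0.00899), a call kept in all settings. Btbd35f12 (0.78, adjusted p = 0.0508) and Tshz1 (0.57, adjusted p = 0.0641) did not pass.

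Of 26 other B cell transcription factors tested, 3 rose and 2 fell in ε/ε against wild-type, with a median difference of 0.11. Over all genes tested, 2.33% passed as higher and 6.34% in either direction. At an unadjusted limma p under 0.05 there were 12 of the 26, against 24.8% of all genes tested. Tcf3, the E2A protein that acts with Ebf1, rose from 5.33 to 6.73, a difference of 1.40 (SE 0.23, adjusted p = 0.00896), with the ε/ε arrays wholly above wild-type. Runx3 rose from 4.39 to 5.55, a difference of 1.16 (SE 0.14, adjusted p = 0.00239). It was the only gene of this list to pass between ε/ε and γ1/γ1 (0.67, adjusted p = 0.0344). That second call was lost without any 1 array other than ε/ε replicate 3 (adjusted p of 0.055 to 0.0982), and with array weights (0.0524). It was also lost with only the 6 arrays compared (0.105) and without the 2 arrays of low Xist (0.145). Tcf3 and Runx3 kept their calls against wild-type in every setting run. Spi1, encoding PU.1, which macrophages also express, rose by 0.62 (adjusted p = 0.0431). It read 5.83, 5.66 and 5.75 on the ε/ε arrays and 5.36, 5.16 and 4.87 on those of wild-type. The part of macrophage RNA in its rise was not tested. Its call was lost without any 1 array other than wild-type replicate 1 (adjusted p of 0.0521 to 0.138). Mef2c, a MADS box factor of receptor signalling, fell from 9.75 to 8.93, a difference of -0.82 (SE 0.15, adjusted p = 0.0139), and the call was lost without wild-type replicate 3 (adjusted p = 0.0504). Irf2, named after its values were seen, fell by 0.51 (adjusted p = 0.0454) and lost the call without any 1 array other than ε/ε replicate 2 (0.0527 to 0.119), and after quantile normalization (0.18).

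Among 14 genes tested that Pax5, Ebf1 or their partners activate, 2 rose in ε/ε against wild-type and 0 fell, with a median of 0.21. With array weights, or with trended and robust variance, 1 fell. Over all genes tested, 2.33% passed as higher and 6.34% in either direction. At an unadjusted limma p under 0.05 there were 7 of the 14, against 24.8% of all genes tested. Of these, Cd24a (-0.59), Fcrla (-0.91) and Ralgps2 (-0.33) were lower in ε/ε and the others higher. Blnk, the adaptor of the B cell receptor, rose by 0.79 (SE 0.15, adjusted p = 0.0156), and Siglecg, an inhibitory receptor, by 0.60 (adjusted p = 0.0294). Without wild-type replicate 2 or 3 neither passed (adjusted p of 0.0705 and 0.0613 for Blnk, and of 0.102 and 0.109 for Siglecg), and Siglecg also missed without ε/ε replicate 2 or 3 (0.0653 and 0.06). Of 5 genes tested from other lineages that Pax5 represses, 0 rose and 1 fell, although the median was 0.57. That gene was Grap2, an adaptor of T cell signalling, which read 4.18, 6.14 and 4.95 on the ε/ε arrays, 6.92, 7.15 and 6.89 on those of γ1/γ1, and 6.95, 7.06 and 7.48 on those of wild-type. It fell by 2.07 against wild-type (SE 0.39, adjusted p = 0.0157) and by 1.90 against γ1/γ1 (adjusted p = 0.0354), with the ε/ε arrays below all others. Against wild-type the call was lost without wild-type replicate 2 (adjusted p = 0.0659) or 3 (0.0701), and with only the 6 arrays compared (0.0625). Against γ1/γ1 it was lost without any 1 array other than ε/ε replicate 2 (0.0619 to 0.101), with array weights (0.0608) and without the filter on dim genes (0.0601). It was also lost there with only the 6 arrays compared (0.12) and without the 2 arrays of low Xist (0.123). At an unadjusted limma p under 0.05 for ε/ε against wild-type there were 3 of the 5, against 24.8% of all genes tested. These were Grap2 and, as higher, Flt3 and Notch1. Without ε/ε replicate 1 the median of the 5 was 0.37, a value that does not show which genes of the list moved. Of the tested genes of this list, Fcer1g is also expressed by macrophages. The part of macrophage RNA in the differences of this list was not tested.

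Of 19 plasma cell genes tested, 0 passed in any comparison, 5 had an unadjusted limma p under 0.05 for ε/ε against wild-type (24.8% of all genes tested had), and the median difference of ε/ε from wild-type was -0.025. Xbp1, the secretory factor acting after Prdm1, differed by 0.96 (adjusted p = 0.0559) with the ε/ε arrays wholly above wild-type, and Hyou1, which folds secretory proteins, by 0.53 (adjusted p = 0.0688). After quantile normalization 2 genes of this list passed as higher. Other settings in which 1 passed as higher included arrays centred on their medians, the filter at percentile 75 and leaving out γ1/γ1 replicate 1. Of 7 germinal centre genes tested, 0 passed in any comparison and 1 had an unadjusted limma p under 0.05 for ε/ε against wild-type, against 24.8% of all genes tested, with a median near 0 (-0.01). Mki67, a marker of cycling cells, differed by 0.73 (adjusted p = 0.109), and Fas, the death receptor, by 0.62 (adjusted p = 0.245). Without ε/ε replicate 3, 1 germinal centre gene passed as higher. In γ1/γ1 against wild-type, 0 genes of these 5 lists passed, and 9 of the 70 tested had an unadjusted limma p under 0.05, against 6.82% of all genes tested.

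**Figure D5:**
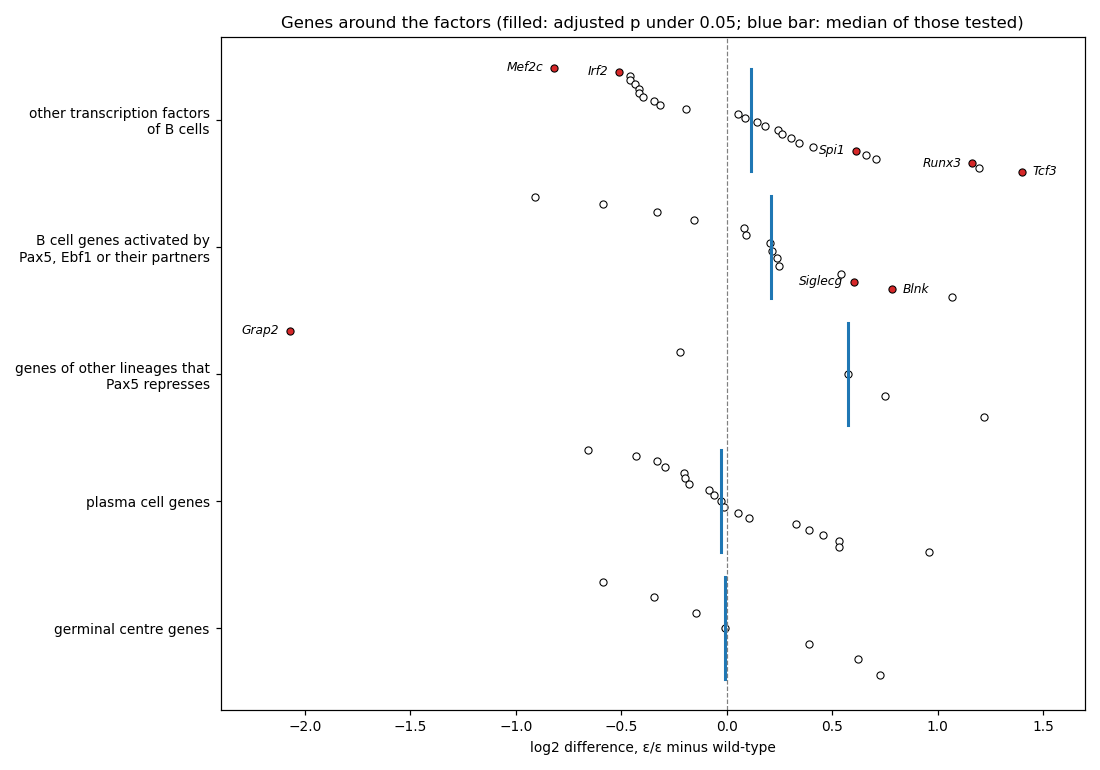
Log2 difference of ε/ε minus wild-type (horizontal axis) for each gene tested in the 5 gene lists. Filled points have a limma adjusted p under 0.05 and blue bars are medians. Medians lie between -0.025 and 0.57, and Grap2 is the farthest point, at -2.07.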

How the data were processed

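The authors deposited log2 signals of 41345 probe sets on 9 single-colour arrays, and the submitters' processing notes name R 3.3.1. The range of the values gave the log2 scale. How the arrays were background-corrected, normalized and summarised is not stated there. From 54 to 360 ng of total RNA was amplified per the labels' protocols. The platform's annotation gave 23521 probe sets 1 symbol, 1814 several and 16010 none, and those without a single symbol were not used. A gene was tested when it lay above the array's median on at least 3 of 9 arrays. All arrays entered 1 limma 3.58.1 model (R 4.3.3) with a mean per genotype, no covariate, 6 residual degrees of freedom and eBayes, and Benjamini-Hochberg adjustment over 12170 genes, tested on simulated data. The number of arrays limits the precision. The text names all 10 factors, up to 4 passing genes per list with the largest difference of ε/ε from wild-type or else the 2 with the smallest p, and the 3 genes most correlated with each factor that passed. The factors and lists were chosen with earlier results of these data known. Alternatives changed the normalization, filter, probe sets, variance model and arrays, and for list genes and correlated genes they were added after seeing the data. Deviations of same-numbered arrays from their group means correlated at -0.09 to 0.16, and the numbers were not taken as pairs. Between ε/ε and γ1/γ1, however, the same-numbered array was the best match for 6 of 6 arrays. The reported test does not account for this, and results with a replicate block are given below. Figures used Python 3.11.15 with matplotlib 3.10.9.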

Additional observations from a re-analysis of the deposited data

How the results depend on the processing

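Of the 2 factors that passed between ε/ε and wild-type, Pou2af1 passed in every setting run and Spib failed in 6, so the count was 1 with a replicate block and 1 with only the 6 arrays compared, and ranged from 1 to 2 with each array left out in turn. The replicate block, in which Spib had an adjusted p of 0.0503, changed no other factor's call. Among the other named genes it ended the calls against wild-type of Psme2 (0.0544), Siglecg (0.0579), Tlr9 (0.0579), Zyx (0.0598), Spi1 (0.061) and Irf2 (0.0781), and that of Runx3 between ε/ε and γ1/γ1 (0.0666). Under it 668 genes in all passed between ε/ε and wild-type, 1 plasma cell gene among them as higher, and 0 between γ1/γ1 and wild-type. With only the 6 arrays compared, further calls against wild-type were lost. The limma adjusted p was 0.0555 for Siglecg, 0.0625 for Grap2, 0.0636 for Zyx and 0.0743 for Tlr9. It was 0.0776 for Psme2, 0.0803 for Irf2 and 0.0824 for Spi1. Between ε/ε and γ1/γ1 it was 0.105 for Runx3 and 0.12 for Grap2. Same-numbered arrays correlated best for 6 of 6 arrays between ε/ε and γ1/γ1 but for 2 of 6 in each comparison with wild-type. In the F test over the 3 genotypes 1 factor passed, 2 after quantile normalization, 2 with the filter at percentile 75, 0 with the 2 arrays of low Xist left out, and 0 to 2 with each array left out. No factor passed between γ1/γ1 and wild-type or between ε/ε and γ1/γ1 in any setting run. Differences that changed sign all missed the threshold, and the cause was not tested. After quantile normalization Ets1 gave 0.0062 for ε/ε minus wild-type, and for γ1/γ1 minus wild-type Bach2 gave 0.057 and Ets1 0.019. With the low-Xist arrays left out, γ1/γ1 minus wild-type was 0.041 for Bach2, -0.032 for Irf8 and 0.072 for Ets1, and with array weights it was -0.036 for Irf8. Leaving out each array in turn, γ1/γ1 minus wild-type ranged from -0.068 to 0.38 for Pax5, -0.016 to 0.071 for Ebf1, -0.068 to 0.30 for Pou2f2, -0.14 to 0.049 for Bach2, -0.11 to 0.28 for Irf8 and -0.17 to 0.076 for Ets1. In the same way ε/ε minus γ1/γ1 ranged from -0.44 to 0.0083 for Bach2, -0.041 to 0.34 for Irf8 and -0.23 to 0.059 for Ets1. Over all genes, the number passing ranged from 186 to 932 between ε/ε and wild-type (772 as reported), 56 to 394 between ε/ε and γ1/γ1 (324), 0 to 7 between γ1/γ1 and wild-type (5) and 173 to 580 in the F test (500). The lowest of these came without wild-type replicate 2, with only the 6 arrays compared, with settings that included the replicate block, and without wild-type replicate 3.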

Other observations

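Some log2 values repeated exactly between arrays. Ebf1 had the same value on 3 arrays (γ1/γ1 replicates 2 and 3 and wild-type replicate 1) and Pou2f2 on 2. Of all genes tested, 51.9% (6315) had at least 2 arrays at the same value.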
